A study of Drosophila busckii and Drosophila melanogaster and Drosophila virilis with 5 samples.

Results

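RpL15 and Uro are genes of the D. virilis annotation that lay on arm 3R of the D. virilis Hi-C assembly and on other arms in D. melanogaster, where RpL15 lay on 3L and Uro on 2L. They were chosen by this difference in arm. Of the 14556 genes annotated in D. virilis, 321 carried a symbol that occurred once in each annotation and lay on a chromosome arm in both species. RpL15 and Uro were the 2 of these 321 genes (0.623%) whose arm differed, which is the selection itself and not a result. The match rests on the symbol alone. Of the 89 matched genes on 3R in D. virilis, 87 were on 3R in D. melanogaster too. The authors named the D. virilis arms by aligning them to the D. melanogaster genome, so this match is partly built into the names.

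The boundaries and the assembly of the D. virilis arms come from Hi-C, which measures how often pairs of genomic sites touch each other in the nucleus. Gene positions come from the annotation of each species. The D. virilis embryos came from a San Diego stock center line. It was labelled with stock number 15010-1051.0, which the paper prints with a longer last part. The D. melanogaster embryos came from the line labelled w1118 Oregon R. Embryos were whole, of mixed sex and of stage 15 to 16, and no treatment was applied. Each species had 1 map, summed from 2 replicates before boundaries were called. No spread between replicates can therefore be given for any distance, and values of the 2 species are set side by side as ranks within each map. Contact counts were not in the lists, so the depth at each boundary is unknown.

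A topologically associating domain (TAD) is a stretch of chromatin whose sites meet more often among themselves than with the rest of the arm, and its ends are called boundaries. In flies, boundaries are often found at the starts of active genes. RpL15 encodes a protein of the large ribosomal subunit, made in every growing cell, and in D. melanogaster it is known as a gene of the heterochromatin next to the centromere. Uro encodes urate oxidase, which turns urate into allantoin and is known in D. melanogaster from the Malpighian tubules, the excretory organs of the fly. Urate itself is made by xanthine dehydrogenase, the product of ry.

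The sequences at which the genes begin in D. melanogaster are shown because the distances below are counted from these starts, and the stretch at the boundary beside Uro because that boundary has no counterpart beside the D. virilis gene. They were read from the D. melanogaster genome (RefSeq, the dm6 build) on the plus strand. Capitals mark the first base of the annotated gene and, inside the stretch, a motif named in the next paragraph. The RpL15 stretch is 3L:27267125-27267274 and the Uro stretch 2L:7779955-7780104, each with 130 bases before the start and 20 bases from it on. The boundary stretch is 2L:7782761-7782884, which runs from the end of CG7164 to 20 bases into Brd7-9, a gene for a bromodomain protein.
RpL15 start: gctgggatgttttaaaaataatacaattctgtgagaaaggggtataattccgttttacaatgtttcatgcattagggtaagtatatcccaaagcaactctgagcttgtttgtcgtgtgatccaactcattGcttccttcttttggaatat
Uro start: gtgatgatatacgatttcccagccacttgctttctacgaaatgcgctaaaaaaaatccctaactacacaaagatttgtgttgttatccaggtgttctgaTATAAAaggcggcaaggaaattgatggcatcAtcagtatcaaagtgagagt
CG7164 end to Brd7-9 start: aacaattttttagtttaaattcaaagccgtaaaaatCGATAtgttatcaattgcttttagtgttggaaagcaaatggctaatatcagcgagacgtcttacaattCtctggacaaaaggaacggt

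Each stretch was searched on both strands for 4 short motifs. GGTCACACT is Motif 1 of fly core promoters, and TATCGATA is the DRE. The insulator protein BEAF-32 binds the shorter CGATA, which the DRE contains. The fourth motif was TATAAA, known from many promoters. The RpL15 stretch held none of them. The Uro stretch held TATAAA, with its first base 31 bases before the start. The same 150 bases around the starts of all 13945 coding genes of D. melanogaster held TATAAA in 26.8% of cases, CGATA in 34.7%, TATCGATA in 7.61% and GGTCACACT in 4.21%. The boundary stretch beside Uro held CGATA, 68 bases before the start of Brd7-9. Stretches of the same 124 bases at coding gene starts held CGATA in 31.7% of cases. The shares count a motif at any place in the stretch, on either strand. The matches describe the letters only.

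In D. virilis, RpL15 (FBgn0085982) lay at 3R:37481581-37482849 on the minus strand. Its start was 1.66 kb from the centre of the nearest boundary. Of 13322 coding genes between the outermost boundaries of their arms, 17.7% lay at least as near, and the median coding gene was 10.8 kb away. The boundary was at the 3R:37480951-37481424 interval, beyond the end of the gene and not at its start. The annotated gene end was 0.394 kb from the centre of this boundary and 0.157 kb from its edge. No other coding gene started or ended closer to it. Boundaries with a coding gene end within 1000 bp and no coding gene start within that distance were 159 of the 2127 in the list (7.48%), while 61.2% had a start and 31.4% had neither.

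The TAD of RpL15 reached from this boundary to another at 3R:37621548-37623655, 140 kb above the gene start. RpL15 thus sat at the very edge of its TAD, at 1.17% of its length. The authors' separation score (lower for a boundary that fewer contacts cross) was -0.0644 at the lower boundary, and 47.5% of the list had the same or a lower score. At the upper boundary it was 0.102, with 81.0% of the list at the same or a lower score. The nearest coding gene start to this upper boundary, that of GJ22513, was 63.5 kb away. GJ26166 and GJ25591, which did not count as coding genes, overlapped the boundary, and GJ26166 started 0.106 kb from its centre.

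The TAD of RpL15 was long and held few genes. It measured 141 kb, longer than 86.4% of the 2121 TADs, against a median of 39.6 kb. It held 3 coding genes, namely RpL15, GJ22512 and GJ22513. This was 21.2 coding genes per Mb, and 8.58% of TADs had as low a density, the median being 106. The next TAD at lower coordinates measured 15.9 kb and the next at higher coordinates 101 kb, and each held 0 coding genes by gene midpoint. The gap between RpL15 and its coding neighbour GJ22515 below was 15.7 kb, and the gap to GJ22512 above was 35.3 kb. The longer gap exceeded that of 93.4% of 10902 coding genes, whose median was 2.15 kb. Genes overlapped by a coding gene that begins at lower coordinates were left out of these.

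In D. melanogaster, RpL15 (FBgn0028697) lay at 3L:27267255-27268445 on the plus strand, far from any boundary. The nearest boundary was 91.9 kb from its start, and 95.8% of 13908 coding genes were at least as near, with a median of 9.09 kb. The gene sat near the middle of its TAD, at 51.8% of its length. This TAD was 191 kb long, longer than 94.6% of the 2203 TADs of the D. melanogaster list. It held 2 coding genes, RpL15 and Dbp80, or 10.5 coding genes per Mb, and 4.81% of TADs had as low a density. The flanking boundaries ranked among the weaker of the list, with 77.5% and 98.0% of boundaries at the same or a lower score.

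**Figure D1:**
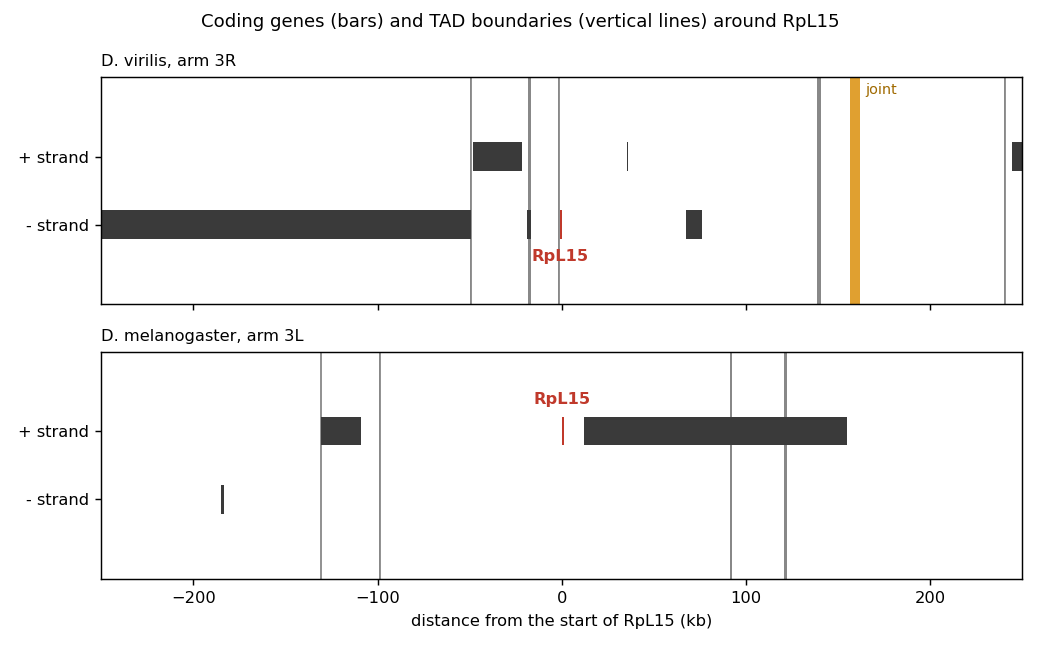
Coding genes (bars, by strand) and TAD boundaries (grey vertical lines, as wide as the interval) within 250 kb of RpL15 in D. virilis and D. melanogaster, by distance from the gene start in kb, with a joint between scaffold pieces in orange. In D. virilis a boundary lies 1.66 kb from the start of RpL15, beyond the end of the gene, and in D. melanogaster the nearest boundary is 91.9 kb away, inside Dbp80.

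The surroundings of RpL15 were poor in genes in both species. Within 500 kb on each side there were 13 coding genes in D. virilis, where the median around coding genes of 3R was 99, and 0.882% of them had as few. In D. melanogaster there were 4, where the median on 3L was 127, and 0.150% had as few. Boundaries in the same windows numbered 8 in D. virilis (median 15, with 12.9% of genes having as few) and 4 in D. melanogaster (median 19, with 0.150%). The comparison is with coding genes whose whole window lay between the outermost boundaries of the arm, whereas the window of RpL15 reached past the last boundary in both species. RpL15 was thus in a gene-poor stretch of each arm, while its place within the TAD differed between the species.

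In D. melanogaster its nearest coding neighbours were vtd, which encodes a cohesin subunit, 109 kb below, and Dbp80, a gene for a DEAD-box RNA helicase, 10.9 kb above. Next came CG40228 below, and eIF4B and l(3)80Fj above. Dbp80 was 143 kb long there, and both boundaries above RpL15, the last of the arm, lay inside it. In D. virilis Dbp80 was annotated as 1.62 kb long on 3L, the arm it has in D. melanogaster, and not beside RpL15. Its D. virilis start was 5.29 kb from a boundary and its TAD was 15.5 kb long. The 5 coding genes on each side of RpL15 in D. virilis carried only GJ symbols, which the annotation does not pair with D. melanogaster names, so whether any other neighbour was shared was not tested.

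The gene model itself was alike in both species. RpL15 had 612 coding bases without the stop codon, or 204 codons, in the single D. virilis transcript and in each of the 8 D. melanogaster transcripts. An intron within the coding part measured 163 bp in D. virilis and 173 bp in D. melanogaster. The D. virilis gene spanned 1269 bp and the D. melanogaster gene 1191 bp. In D. melanogaster, 2 small nucleolar RNA genes, snoRNA:Me18S-G1358c and snoRNA:Me18S-C419, lay within RpL15. The D. virilis annotation listed no gene within it. That annotation had fewer genes on the arms (14493 against 18164), and whether D. virilis lacks these RNA genes was not tested.

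On the arm, RpL15 was close to one end in each species. In D. virilis it lay at 97.9% of the 38.3 Mb of assembled 3R, 0.791 Mb from the end, with 4 of the 519 boundaries of the arm beyond it. In D. melanogaster it lay at 97.0% of the 28.1 Mb of 3L, with 2 of 444 boundaries beyond it. The last 12.5% of D. virilis 3R held 56 of its 3278 coding genes (1.71%) and 28 of its 519 boundaries (5.39%). Each bin of 2.5% there held between 7 and 14 coding genes, where the median bin of the arm held 89.5.

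**Figure D2:**
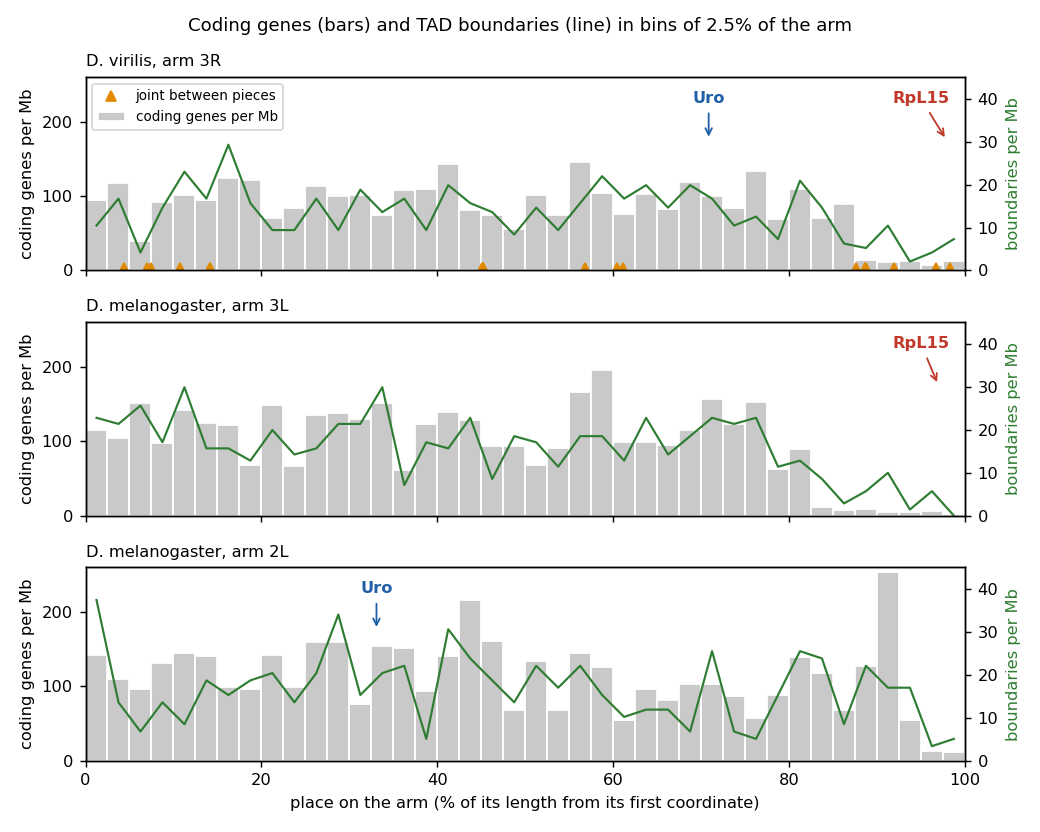
Coding genes per Mb (bars, left axis) and TAD boundaries per Mb (green line, right axis) in bins of 2.5% of the arm, for D. virilis 3R and D. melanogaster 3L and 2L, with the places of RpL15 and Uro and, for D. virilis, the joints between scaffold pieces. RpL15 lies in the gene-poor last bins of 3R (97.9%) and 3L (97.0%), and Uro at 70.9% of 3R and 33.1% of 2L.

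The D. virilis arms were built by the authors from earlier scaffolds, which Hi-C contacts placed in order, so a gene's arm depends on where its scaffold was put. RpL15 lay on scaffold 12736, which was placed whole and reversed as piece 19 of the 20 pieces of 3R. The piece was 0.612 Mb long and held 7 coding genes and 5 boundaries. It held no other matched gene, so no gene other than RpL15 bears on the arm of this piece by symbol. The nearest matched gene on 3R was dsx, the sex determination gene, 5989 kb below, and by the selection it is on 3R in both species. No matched gene lay above RpL15.

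The joints around RpL15 were 458 kb below and 159 kb above its start. Of 13297 coding genes, 11.1% lay as near to a joint, and the median was 1142 kb. No joint fell inside its TAD. The upper boundary of the TAD was 19.3 kb from a joint and the lower boundary 161 kb. The piece below was part of scaffold 12958 (1.82 Mb, 23 coding genes) and the piece above was scaffold 12936, reversed (0.630 Mb, 6 coding genes). A misplaced piece and a moved gene cannot be told apart from these files.

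The 7 coding genes on the RpL15 piece ranged from 0.528 to 222 kb in length, with a median of 9.06 kb against 2.21 kb over all D. virilis coding genes. GJ22507 (133 kb) and GJ22521 (222 kb) were longer than 100 kb, a length that 0.767% of coding genes exceeded. Starts of 4 of the 7 were within 2 kb of a boundary, as were those of 19.5% of all D. virilis coding genes. They were GJ22521 at 0.0755 kb, GJ22515 at 0.533 kb, GJ25928 at 1.24 kb and RpL15 at 1.66 kb. The start of GJ22512 was 36.9 kb away, that of GJ22513 63.5 kb and that of GJ22507 161 kb. Among the 5 boundaries of the piece, the strongest was 288 kb below RpL15, with a score of -0.203 that 14.2% of the list matched or fell below. The piece held 11.4 coding genes per Mb, against 85.6 over the whole of 3R.

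In D. virilis, Uro (FBgn0013101) lay at 3R:27122387-27123626 on the plus strand, deep inside a long TAD. Its start was 74.9 kb from the nearest boundary, and 90.5% of coding genes were at least as near. The TAD measured 223 kb, and 145 TADs of the list were at least as long. Uro sat at 33.6% of its length. The lower boundary was at 3R:27046606-27048288, 0.012 kb from the start of GJ10369, with a score of -0.167 that 21.3% of the list matched or fell below. The upper boundary was at 3R:27269492-27270842, 148 kb from the start of Uro, with a score of 0.105 and 81.5% of the list at the same or a lower value. The nearest coding gene start there, of GJ10365, was 9.37 kb off. This boundary lay inside sim, a transcription factor gene of the central nervous system midline. The end of sim, 6.78 kb off, was the nearest coding gene end.

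The TAD of Uro held 11 coding genes, or 49.4 per Mb, and 24.3% of TADs had as low a density. Besides Uro these were GJ10790, GJ10791, GJ10792, GJ10368, GJ10367, GJ10794, GJ10366, GJ10795, GJ25975 and GJ10365. The longest was GJ10366 at 82.9 kb, followed by GJ10790 at 51.6 kb. The nearest coding neighbours were GJ10792, 4.20 kb below, and GJ10368, 16.9 kb above. The longer gap exceeded that of 85.3% of the 10902 coding genes compared for gaps. The next TADs were shorter than that of Uro, at 21.3 kb with 7 coding genes below and 34.2 kb with 2 above. Within 500 kb on each side there were 99 coding genes, equal to the median of 3R, and 18 boundaries, where the median was 15.

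In D. melanogaster, Uro (FBgn0003961) lay at 2L:7780085-7781415 on the plus strand, at 98.0% of the length of its TAD. The nearest boundary was 2.83 kb from its start, and 26.0% of coding genes were at least as near. This boundary, at 2L:7782418-7783413, was centred 0.0505 kb from the start of Brd7-9 and 0.156 kb from the end of CG7164, at the stretch printed above. Its score was -0.138, and 30.5% of the list had the same or a lower score. The lower boundary was 139 kb away, with 84.7% of the list at the same or a lower score, and the end of Slob, a gene for a protein that binds the Slowpoke channel, was 0.849 kb from it.

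**Figure D3:**
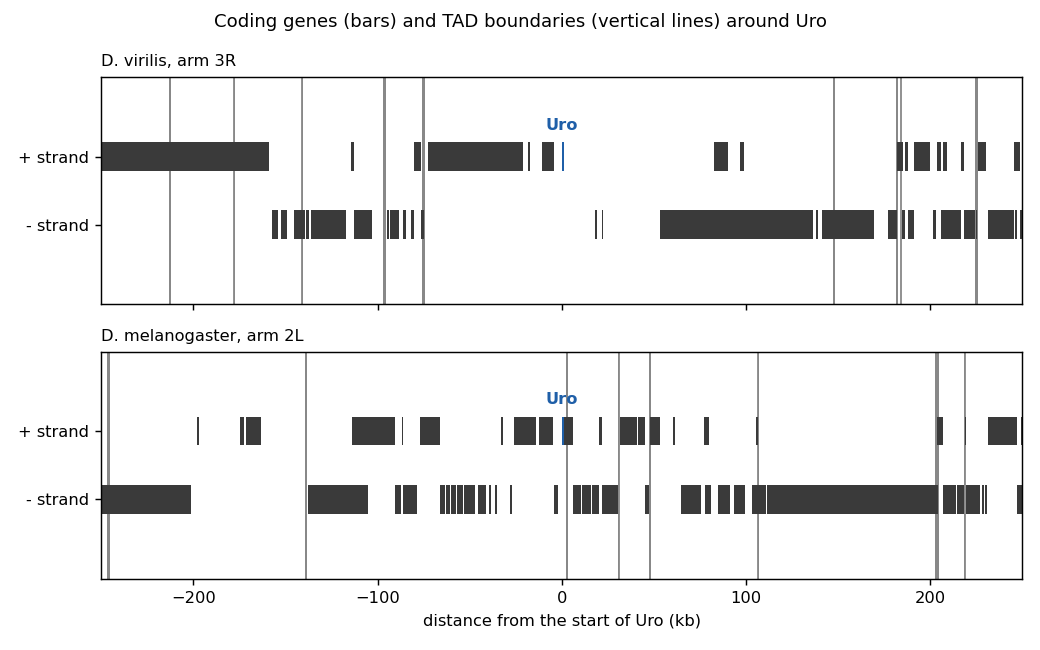
Coding genes (bars, by strand) and TAD boundaries (grey vertical lines) within 250 kb of Uro in D. virilis and D. melanogaster, by distance from the gene start in kb. In D. virilis the flanking boundaries are 74.9 kb below and 148 kb above, and in D. melanogaster 139 kb below and 2.83 kb above.

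The TAD of Uro in D. melanogaster was 142 kb long, longer than 90.7% of TADs, and held 23 coding genes. Its density, 162 coding genes per Mb, was above that of its D. virilis TAD, and 56.3% of TADs had as low a density. Uro lay 2.06 kb from CG7179 below and 0.049 kb from CG7164 above. Members with known roles included Tep2 and Tep3, which encode thioester-containing proteins of immunity, the cuticle protein gene Acp1, and ATPsynGL, a gene for an ATP synthase subunit. Beyond the boundary came Brd7-9, CG7149, LKRSDH, which acts in lysine breakdown, and Herp. Within 500 kb on each side there were 123 coding genes (median 122 on 2L) and 19 boundaries (median 18), so the surroundings of Uro were near the middle of the arm's range in both species.

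The matched genes around Uro differed between the species. In D. virilis the nearest below were RpL32 at 280 kb, Sry-alpha at 285 kb and Sry-beta at 287 kb, and the nearest above were sim at 170 kb, ry at 224 kb, the corepressor gene CtBP at 245 kb and fru at 790 kb. Each of these was on 3R in D. melanogaster too, since by the selection every other matched gene kept its arm. In D. melanogaster the nearest matched genes were Tep3 at 77.3 kb, Tep2 at 78.5 kb and Obp28a, an odorant-binding protein gene, at 283 kb, which were on 2L in both species. In D. virilis, Uro lay on the same arm as ry, whose product makes the substrate of urate oxidase. Their starts were 224 kb apart on this arm of 3278 coding genes, and any link between their places was not tested.

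Unlike RpL15, Uro lay on a long scaffold piece shared with many matched genes. Scaffold 12855 formed piece 14 of the 20 pieces of 3R, 10.1 Mb long, in the forward direction, with 99.6% of the scaffold in it. The piece held 961 coding genes, 147 boundaries and 32 other matched genes, and all 32 were on 3R in D. melanogaster. This follows from the selection, since RpL15 and Uro were the only matched genes whose arm differed. Joints were 3735 kb below and 6393 kb above Uro, and 90.1% of coding genes were at least as near to a joint. No joint fell inside its TAD. On the arm, Uro was at 70.9% of 3R, 11.2 Mb from the end, and in D. melanogaster at 33.1% of the 23.5 Mb of 2L.

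The gene model of Uro had 2 exons in both species. The intron measured 55 bp in D. virilis and 69 bp in D. melanogaster and lay within the coding part in each. The coding part without the stop codon was 1026 bp, or 342 codons, in D. virilis and 1056 bp, or 352 codons, in D. melanogaster. The annotated gene spanned 1240 bp in D. virilis and 1331 bp in D. melanogaster.

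The order of the genes by distance to a boundary was opposite in the 2 species. RpL15 was the nearer gene in D. virilis (1.66 kb against 74.9 kb for Uro), and Uro was the nearer in D. melanogaster (2.83 kb against 91.9 kb for RpL15). Each of the 4 TADs was longer than 86.4% or more of the TADs of its own list. These ranks count each TAD once, whatever its number of genes. The share of coding genes that lie in TADs as long was not computed, so the ranks do not show how unusual this is for a gene. With 1 map a species and genes chosen for their arms, the order of RpL15 and Uro was not tested. Matched ribosomal protein genes that kept their arm also differed between D. virilis and D. melanogaster. The share of coding genes at least as near was 72.9% and 0.633% for RpS3, and 0.555% and 55.9% for RpS18. It was 42.1% and 7.18% for RpL31, 26.7% and 7.21% for RpL14, and 24.8% and 0.913% for RpL32.

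**Figure D4:**
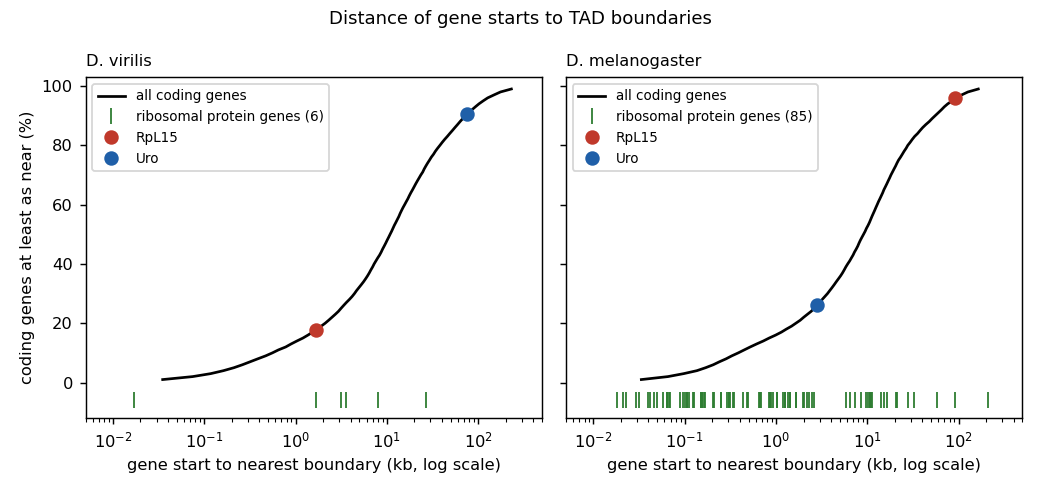
Share of coding genes at least as near to a boundary (y axis, %) against the distance of the gene start to the nearest boundary (x axis, kb, log scale), for all coding genes of each species (black line), with RpL15 and Uro as points and ribosomal protein genes as green ticks below. RpL15 is at 17.7% in D. virilis and 95.8% in D. melanogaster, and Uro at 90.5% and 26.0%.

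**Figure D5:**
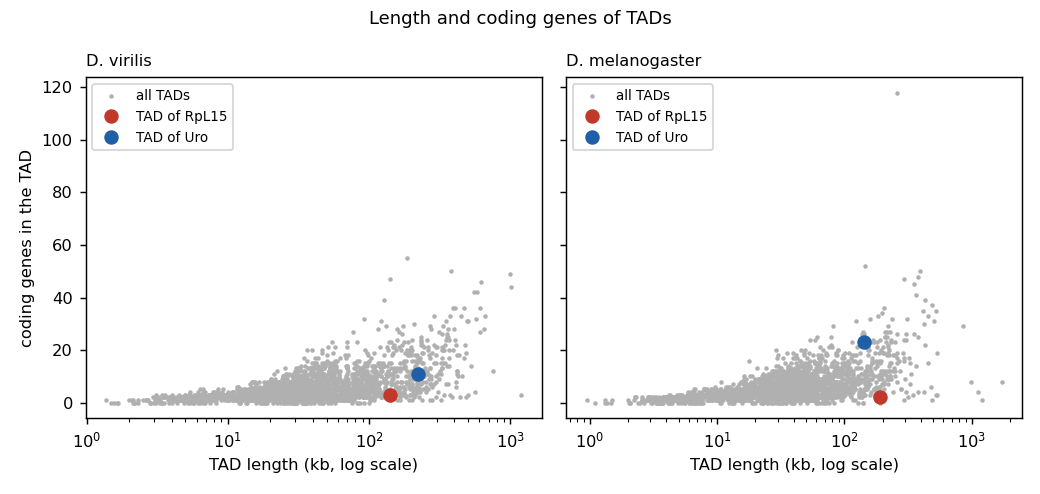
Coding genes in each TAD (y axis) against TAD length (x axis, kb, log scale) for all TADs of each species (grey), with the TADs of RpL15 and Uro coloured. In D. virilis they hold 3 and 11 coding genes in 141 and 223 kb, and in D. melanogaster 2 and 23 in 191 and 142 kb.

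Ribosomal protein genes gave RpL15 a reference among genes of its own kind. In D. virilis 6 matched by symbol, and 5 of them were nearer to a boundary than the median coding gene. RpS18 was at 0.017 kb, RpL15 at 1.66 kb, RpL32 at 3.11 kb, RpL14 at 3.53 kb, RpL31 at 7.97 kb and RpS3 at 26.6 kb. RpL15 was second in this order, and the median was 3.32 kb against 10.8 kb over all coding genes. The TAD of RpL15 held the fewest coding genes of the 6, and the TAD of RpS3, at 311 kb, was the only longer one.

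In D. melanogaster the list held 85 genes, 69 of them nearer than the median over coding genes and 49 within 1 kb, where 16.0% of all 13908 coding genes lay. Their median was 0.674 kb, against 9.09 kb over all coding genes. RpL15 was 84th of the 85, with only RpL5 farther, at 209 kb on 2L, and RpL10Aa next nearer at 58.6 kb. The TADs of these genes had a median length of 32.5 kb and a median of 7 coding genes. RpL15 was among the 8 members whose TAD held 2 or fewer coding genes. Over all coding genes 6.43% started in such a TAD, and 649 of the 2203 TADs (29.5%) were of this kind.

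The urate and purine breakdown list gave 2 matched genes in D. virilis, ry and Uro, on opposite sides of the median. The start of ry was 0.727 kb from a boundary, inside a TAD that was 41.2 kb long and held 14 coding genes, while Uro was at 74.9 kb. In D. melanogaster the list held 17 genes, with a median of 9.58 kb, and 8 were nearer than the median coding gene. Uro was sixth at 2.83 kb, next to ry at 2.01 kb. DhpD was the nearest at 0.0025 kb and AMPdeam, the gene for AMP deaminase, the farthest at 62.5 kb.

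The D. melanogaster sequence of the TADs differed in its share of repeats. In the TAD of RpL15, 32.7% of bases were soft-masked as repeats in RefSeq, more than in 96.1% of TADs, while the median TAD had 14.4% and the TAD of Uro 12.7%. GC content was 39.0% in the TAD of RpL15 and 41.3% in that of Uro, against a median of 43.1%. DpnII sites, which set the resolution of the map, numbered 3.49 per kb in the TAD of RpL15 and 2.84 in that of Uro, against a median of 3.23. The part of repeats in the distances was not tested, and the D. virilis sequence was not used here.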

How the data were processed

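Hi-C was performed on embryos of D. virilis and D. melanogaster. The D. busckii samples were not used. Per the study's methods, the authors mapped reads with BWA, built matrices at DpnII fragment resolution, summed 2 replicates per species and corrected the matrices. They called boundaries with hicFindTADs of HiCExplorer, according to the paper at restriction fragment resolution. The methods also list a merging of bins. The deposited lists give each boundary's position and a score, the TAD-separation score, used only to rank boundaries within a list. The D. virilis annotation was a FlyBase annotation that the authors moved onto the Hi-C assembly, while a deposited chain file places each scaffold piece. Gaps between pieces were 5000 bp in that file, more than the spacer stated in the study's methods, which was not resolved. Joints were put at the middle of each gap.

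Ensembl release 115 (BDGP6 version 54) supplied the D. melanogaster genes, of which transposable elements were left out. To check the build, 4418 boundary edges were set against points midway between the centres of adjacent DpnII fragments of dm6, and 56.4% lay within 3 bp of such a point, against 1.95% after moving the edges by 1000 bp.

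A TAD ran from the centre of a boundary to the centre of the next. Distances ran from the annotated gene start to a boundary centre, and coding genes were counted by midpoint. Percentiles for gaps, joints and windows are over the coding genes named there. Other percentiles are over coding genes between the outermost boundaries of each arm, over all TADs or over the boundaries of a list. Positions count from 1. No test was made, since there were 2 genes and 1 map a species. The members and lists were chosen with earlier results of these data known. Genes named were RpL15, Uro, their 5 coding neighbours on each side, genes of their TADs, genes at the flanking boundaries, the matched members of 2 lists (ribosomal protein genes, urate and purine breakdown genes) and symbol-matched genes nearest to each. Alternatives changed the boundary and gene positions, the set of boundaries, how genes were counted, the joint positions and the symbol matching. The measures were tested on simulated data, where all 200 planted genes were recovered. Scripts ran in Python 3.11.15 with matplotlib 3.10.9, SciPy 1.17.1 and NumPy 2.4.6.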

Additional observations from a re-analysis of the deposited data

How the results depend on the processing

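Of 27 alternative values, 21 stayed within the tolerance of their measure and 6 did not. The tolerance was the distance from the centre of a boundary to its edge, the distance from the middle of a gap to its end, a 95% Wilson interval for a share, or 1.5 times for a count. These counts do not measure robustness, because several alternatives were fixed by design. Steps to a boundary edge or to a piece end were about as large as the tolerance itself. Each gene had 1 annotated transcript in D. virilis, and dropping boundaries close to a joint removed none of the flanking ones. Counted from the gene midpoint, RpL15 was 1.03 kb from its boundary in D. virilis. With the stronger boundaries only (scores at or below the median of -0.0543), the TAD of Uro was 257 kb long and 73.9% of coding genes were at least as near to a boundary as Uro, while the TAD and the share of RpL15 had no value because no stronger boundary lay above the gene. Among coding genes of 3R alone the share for Uro was 89.4%. Measured to the nearest end of a piece, the joint was 157 kb from RpL15 and 3733 kb from Uro. Matching symbols without regard to case gave 5 of 328 genes on another arm (1.52%), adding h, hiphop and nos, whose symbols differ only in case from those of other annotation entries. Matching through older symbols gave RpL15 and Uro again. No paired analysis was possible because each species had 1 merged map. The number of contacts behind each boundary was not given, so a boundary too weak to be called in a gene-poor stretch would not be seen.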
